A study of Mus musculus with 3 samples.

Results

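The 47 genes described here encode the extracellular matrix of the heart and the enzymes and growth factors that remodel it. They are a list of gene names, drawn up with earlier results of these data known, and all 47 were found among the 30415 gene symbols of 3 droplet single-cell RNA sequencing libraries. The cells came from enzymatically digested hearts of NOD/SCID mice, an immunodeficient strain that lacks functional T and B cells, and all groups share that background. Mice received an isotype control antibody, pembrolizumab (PEM, an antibody against PD-1) or atezolizumab (ATZ, an antibody against PD-L1) on days 0 and 7, and hearts were taken on day 14. The hearts of 3 mice were pooled into 1 library per group, so groups cannot be tested against each other, and all intervals given describe counting noise alone. The sample titles name the libraries Isotype Control, PD1/PEM and PDL1/ATZ, whereas the treatment label of the PD1/PEM library reads atezolizumab and that of the PDL1/ATZ library pembrolizumab. The libraries are called here by their titles, and which antibody each received cannot be settled from the labels. The labels used here give neither sex nor age.

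In the heart, fibroblasts make most of the fibrillar collagens and small proteoglycans, which bear tension and space the fibrils. Endothelial and mural cells (pericytes and smooth muscle) lay down basement membranes of type IV collagen, laminin, nidogen and perlecan, while elastic fibres are built of elastin on fibrillin microfibrils. Matricellular proteins such as thrombospondins, periostin and SPARC act between matrix and cell rather than as scaffold. TGF-beta ligands, held latent in the matrix by binding proteins, are the best known inducers of collagen genes, and lysyl oxidases, metalloproteinases and their inhibitors set how the matrix is cross-linked and degraded.

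The isotype, PD1/PEM and PDL1/ATZ libraries held 9510, 6388 and 11599 cells with medians of 1532.5, 2013.5 and 1010 UMIs (unique molecular identifiers, 1 per captured RNA molecule). The PDL1/ATZ library stood apart: its cells had a median of 8.04% mitochondrial UMIs, against 27.1% and 26.9%, 2893 gene symbols were read in it alone and 1942 only in the other libraries, some of them older and newer names of the same gene. The median gene was 0.58 higher on the log2 scale in PDL1/ATZ than in isotype, against 0.01 in PD1/PEM. A set of 23 cell barcodes occurred in both isotype and PD1/PEM, whereas PDL1/ATZ had none in common with either. Marker RNA was spread over nearly all droplets: at least 1 endothelial marker was read in 99.1%, 99.8% and 99.97% of cells. The summed level of 10 cardiomyocyte transcripts, from cells that digestion mostly destroys, was 32274, 23212 and 13770 counts per 1000000 UMIs (CPM).

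Promoter sequence was matched for 29 of the 47 genes in RefSeq (GRCm38.p6), and 4 are shown because they lie on opposite sides of the pattern in cells with fibroblast markers of the PDL1/ATZ library, where Col3a1 and Bgn were lower and Col8a1 and Lama2 higher than in isotype. Each is the 250 bases before the RefSeq start site, 5′ to 3′ on the gene's strand. The RefSeq start of Lama2 lies inside the gene's longer GENCODE span, so that window is within the annotated gene, outside its exons. Capitals mark matches to 3 promoter motifs, searched on both strands. The first is the TATA box, spelled TATAAA. The second, often found a little further upstream and bound by NF-Y, is spelled CCAAT. The last is the GC box, the binding motif of Sp1-like factors, and its letters are GGGCGG.
Col3a1 (type III collagen chain; chr1:45311288-45311537, plus strand): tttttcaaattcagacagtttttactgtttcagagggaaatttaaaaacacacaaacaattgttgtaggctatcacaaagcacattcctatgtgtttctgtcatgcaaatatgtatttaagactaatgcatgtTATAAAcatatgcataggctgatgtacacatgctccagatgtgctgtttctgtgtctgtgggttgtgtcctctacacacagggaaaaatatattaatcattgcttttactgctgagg
Bgn (biglycan; chrX:73483351-73483600, plus strand): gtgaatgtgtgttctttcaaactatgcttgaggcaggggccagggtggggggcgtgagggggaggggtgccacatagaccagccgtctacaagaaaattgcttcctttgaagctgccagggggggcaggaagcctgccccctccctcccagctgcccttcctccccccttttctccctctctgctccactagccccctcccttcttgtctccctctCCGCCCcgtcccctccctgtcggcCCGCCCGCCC
Col8a1 (type VIII collagen chain; chr16:57754738-57754987, minus strand): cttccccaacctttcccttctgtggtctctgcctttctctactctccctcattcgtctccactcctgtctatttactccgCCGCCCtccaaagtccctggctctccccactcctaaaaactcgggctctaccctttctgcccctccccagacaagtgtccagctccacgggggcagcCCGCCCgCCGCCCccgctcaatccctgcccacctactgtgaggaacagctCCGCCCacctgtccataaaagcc
Lama2 (laminin alpha2; chr10:27616943-27617192, minus strand): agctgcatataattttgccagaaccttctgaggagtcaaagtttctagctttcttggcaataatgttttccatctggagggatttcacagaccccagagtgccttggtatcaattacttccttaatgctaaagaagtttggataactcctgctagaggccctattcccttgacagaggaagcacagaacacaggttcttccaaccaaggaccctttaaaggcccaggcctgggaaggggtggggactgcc
The Col3a1 window holds 1 TATA box and neither other motif, and it is AT-rich with a GC share of 35.2%. GC boxes number 3 before Bgn and 4 before Col8a1, so genes on opposite sides of the pattern share that motif, and Lama2 has none of the 3 motifs. Over the 34 windows of member genes, a GC box was present in 64.7%, against 32.7% of all 32851 windows, a CCAAT box in 35.3% against 33.8%, and a TATA box in 8.82% against 12.4%. A match is a description of the letters only.

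The question put to the data was how far matrix transcripts differed between antibody-treated and control hearts. Levels are given as CPM over all deposited cells of a library, so fewer cells of a type and less RNA per cell cannot be told apart. A gene counted as called higher or lower if its CPM differed by 1.5-fold or more with a 95% interval clear of 1, among genes with at least 50 UMIs in the libraries compared. Cthrc1, a matricellular gene of activated fibroblasts, had 12, 11 and 17 UMIs and was too sparse, which left 46 genes. Members together made up 0.935%, 1.06% and 0.966% of all UMIs.

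Between PD1/PEM and isotype the matrix genes differed little, with Thbs1 as the exception. Thbs1, which encodes thrombospondin-1, a matricellular protein that can activate latent TGF-beta, was read at 113 CPM in isotype, 212 CPM in PD1/PEM and 36.6 CPM in PDL1/ATZ. It was therefore highest in PD1/PEM and lowest in PDL1/ATZ, with ratios to isotype of 1.88 (1.77 to 1.99) and 0.324 (0.294 to 0.357). It was the only 1 of the 46 genes called higher in PD1/PEM, and 0 were called lower. Over all 14748 genes the same rule called 5.00% higher and 3.65% lower, so the members' share of calls was not above the background. Smaller differences went mostly upward: 38 of 46 ratios lay above 1, 30 with an interval above 1 and 4 with an interval below it. The share of all genes with such intervals is not given, here or for the role groups below. Interval counts therefore have no background beside them. The median log2 ratio of members was 0.14, against 0.01 over all genes. Without the shared barcodes the counts were again 1 and 0, with a median of 0.14.

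**Figure D1:**
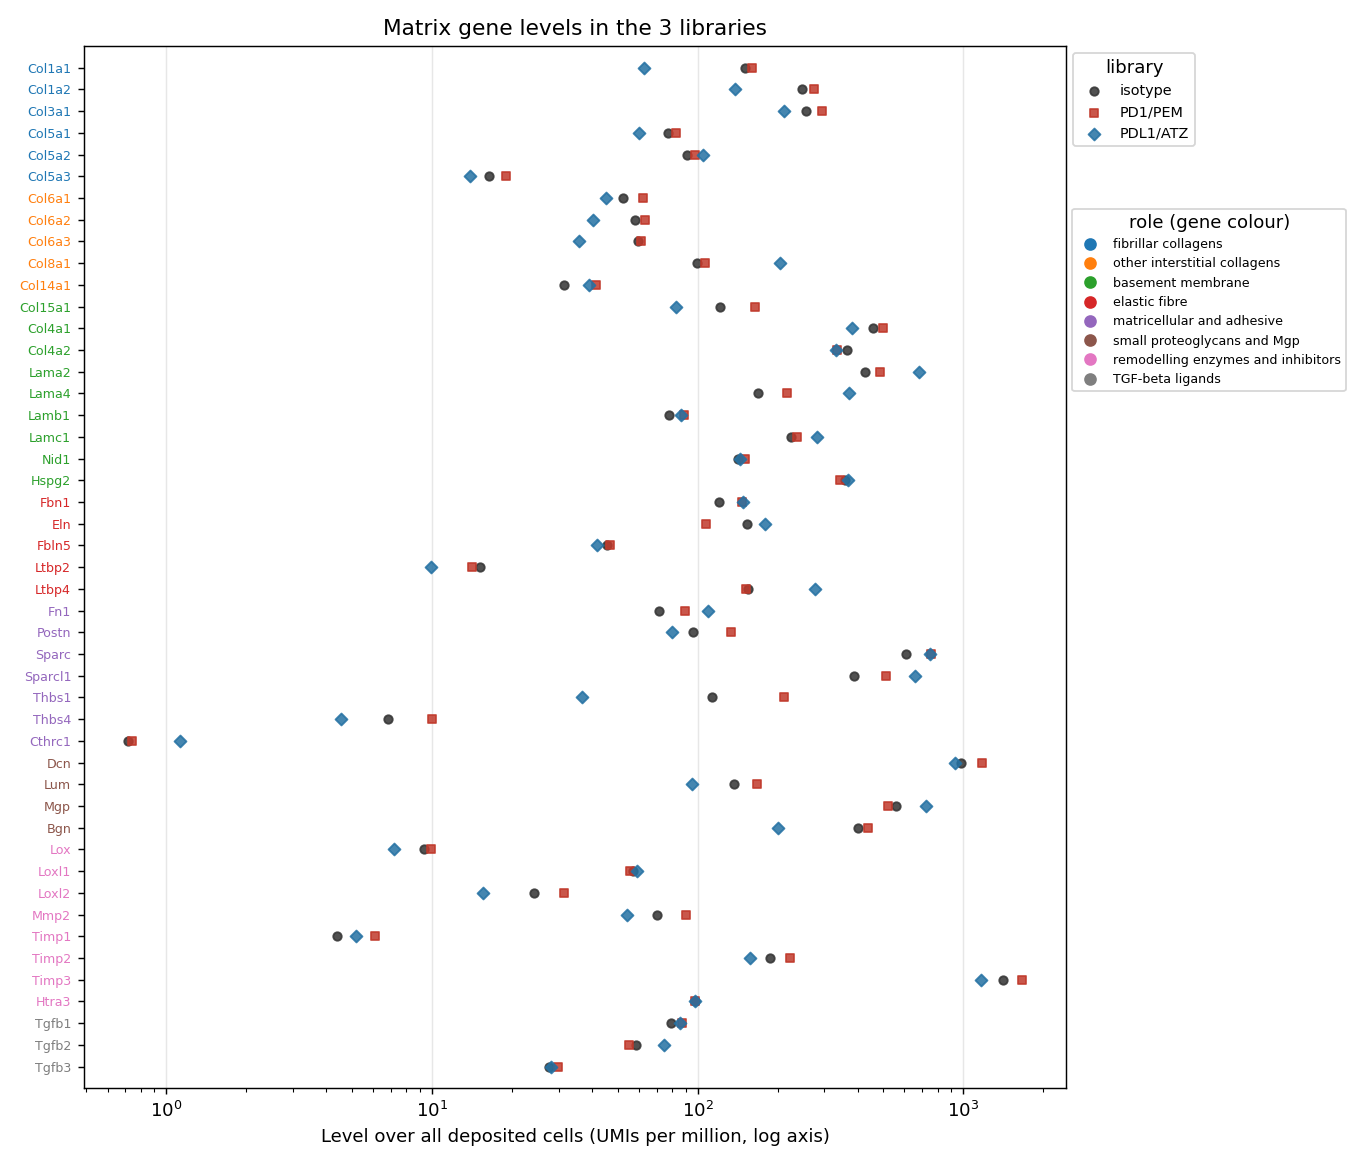
Level of each of the 47 matrix genes (CPM, log axis) in the isotype (circle), PD1/PEM (square) and PDL1/ATZ (diamond) libraries, 1 point per library, with gene names coloured by role. Levels span from Cthrc1 near 1 CPM to Timp3 above 1000 CPM, and Thbs1 shows the widest separation of the 3 points.

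Matricellular genes had the highest median of the role groups in PD1/PEM, a log2 ratio of 0.43, and all 6 measured members had intervals above 1. Their summed level was 1285 CPM in isotype, 1713 CPM in PD1/PEM and 1632 CPM in PDL1/ATZ. Sparc, a collagen-binding glycoprotein and the most abundant of them, stood at 608, 756 and 746 CPM, with ratios to isotype of 1.24 (1.21 to 1.28) in PD1/PEM and 1.23 (1.19 to 1.26) in PDL1/ATZ. Sparcl1, its relative, was at 389, 512 and 655 CPM. Both were thus lowest in isotype by CPM. In PDL1/ATZ against isotype, the log2 ratio of Sparc, 0.29, lay under the 0.58 of the median gene, and that of Sparcl1, 0.75, above it. Postn, which encodes periostin, a product of activated fibroblasts, was at 96.1, 133 and 79.7 CPM, with a PD1/PEM ratio of 1.38 (1.29 to 1.48). Fn1, fibronectin, was at 71.7, 89.7 and 109 CPM. Thbs4 was sparse at 114, 148 and 69 UMIs, and its PD1/PEM ratio of 1.47 (1.14 to 1.89) was imprecise. Postn and Thbs4, like Thbs1, were highest in PD1/PEM and lowest in PDL1/ATZ.

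All 6 fibrillar collagen genes were slightly above 1 in PD1/PEM, with a median log2 ratio of 0.13 and none called. Col3a1 stood at 255 CPM in isotype, 294 CPM in PD1/PEM and 210.4 CPM in PDL1/ATZ, a PD1/PEM ratio of 1.15 (1.1 to 1.20). Col1a1 and Col1a2, the chains of type I collagen, had PD1/PEM ratios of 1.06 (1.01 to 1.13) and 1.11 (1.06 to 1.16). These intervals leave no room for a 1.5-fold difference beyond counting error, although variation between hearts is unknown. Among the other interstitial collagens, Col8a1, a short-chain collagen of vessels and fibrotic tissue, was at 99.3, 107 and 205 CPM, near 1 in PD1/PEM (1.07, 1.0 to 1.15). Col14a1, which decorates fibrils, had the highest PD1/PEM ratio of that group, 1.33 (1.18 to 1.5).

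Basement membrane genes had a median log2 ratio of 0.13 in PD1/PEM, with 7 intervals above 1 and 2 below. Lama2, the laminin chain of muscle basement membrane, stood at 427, 484 and 678 CPM, and its PD1/PEM ratio was 1.13 (1.1 to 1.17). Lama4, the endothelial laminin chain, was at 168, 218 and 370 CPM with a PD1/PEM ratio of 1.29 (1.23 to 1.36). Col15a1, a collagen that anchors basement membranes to the interstitium, reached 1.35 (1.28 to 1.44). The type IV collagen chains, which assemble together and whose genes lie head to head on chromosome 8, moved apart: Col4a1 (chr8:11198423-11312826, minus strand) had a ratio of 1.09 (1.06 to 1.13) and Col4a2 (chr8:11312805-11449287, plus strand) a ratio of 0.914 (0.880 to 0.949). The ratio of Col4a1 to Col4a2 UMIs was 1.25 (1.21 to 1.29) in isotype, 1.49 (1.44 to 1.55) in PD1/PEM and 1.15 (1.11 to 1.20) in PDL1/ATZ, with intervals that did not overlap.

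Elastic fibre genes were the group with a median just under 0 (log2 -0.02), led by elastin. Eln stood at 154 CPM in isotype, 107 CPM in PD1/PEM and 179 CPM in PDL1/ATZ. Its PD1/PEM ratio of 0.697 (0.655 to 0.743) was the lowest of the 46 genes and lay just short of the 1.5-fold limit. Smooth muscle markers moved with it: Acta2, smooth muscle actin, had a PD1/PEM ratio of 0.713 (0.675 to 0.753), Tagln, transgelin, of 0.789 and Myh11, smooth muscle myosin, of 0.898. Their part in the Eln difference was not tested. Fbn1, the microfibril scaffold, was on the other side at 1.22 (1.15 to 1.29). Ltbp4, a latent TGF-beta binding protein and the group's most abundant gene over the 3 libraries, was at 154, 153 and 276 CPM and did not depart from 1 in PD1/PEM (0.988, 0.933 to 1.05).

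The small proteoglycan decorin was among the most abundant members. Dcn stood at 978, 1180.1 and 931 CPM, a PD1/PEM ratio of 1.21 (1.18 to 1.23), and Lum, lumican, had a like ratio of 1.22 (1.15 to 1.29). Mgp, matrix Gla protein, an inhibitor of calcification, was slightly lower at 0.931 (0.903 to 0.959). Of the remodelling genes, Timp3, the matrix-bound metalloproteinase inhibitor, had the highest level of all members at 1411, 1655 and 1165 CPM, with a PD1/PEM ratio of 1.17 (1.15 to 1.19). Mmp2, a gelatinase, had a ratio of 1.29 (1.19 to 1.39) and Loxl2, a collagen cross-linker, 1.30 (1.14 to 1.49), while Loxl1, Htra3 and Lox had intervals that included 1. Among the ligands, Tgfb1 was at 79.6, 87.6 and 85.6 CPM, 1.1 (1.02 to 1.19) in PD1/PEM, and the intervals of Tgfb2 and Tgfb3 included 1.

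Most marker lists, but not the mural one, also had a higher sum in PD1/PEM than in isotype. Summed endothelial markers stood at 4474, 5319 and 9576 CPM, fibroblast markers at 1109, 1209 and 2072 CPM, macrophage markers at 476, 616 and 773 CPM, mesothelial markers at 155, 238 and 252 CPM and mural markers at 1319, 1302 and 1782 CPM. In PD1/PEM, 10 of 16 endothelial markers had ratios above 1 with 1 called higher, 12 of 16 fibroblast markers with 0 called, 10 of 12 macrophage markers with 0 called, and 6 of 8 measured mesothelial markers with 2 called higher. Of the 12 mural markers, 7 had ratios above 1, with 1 called higher. All 10 cardiomyocyte transcripts were below 1, with 5 called lower. The part of these shifts in the members' small upward differences was not tested.

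**Figure D2:**
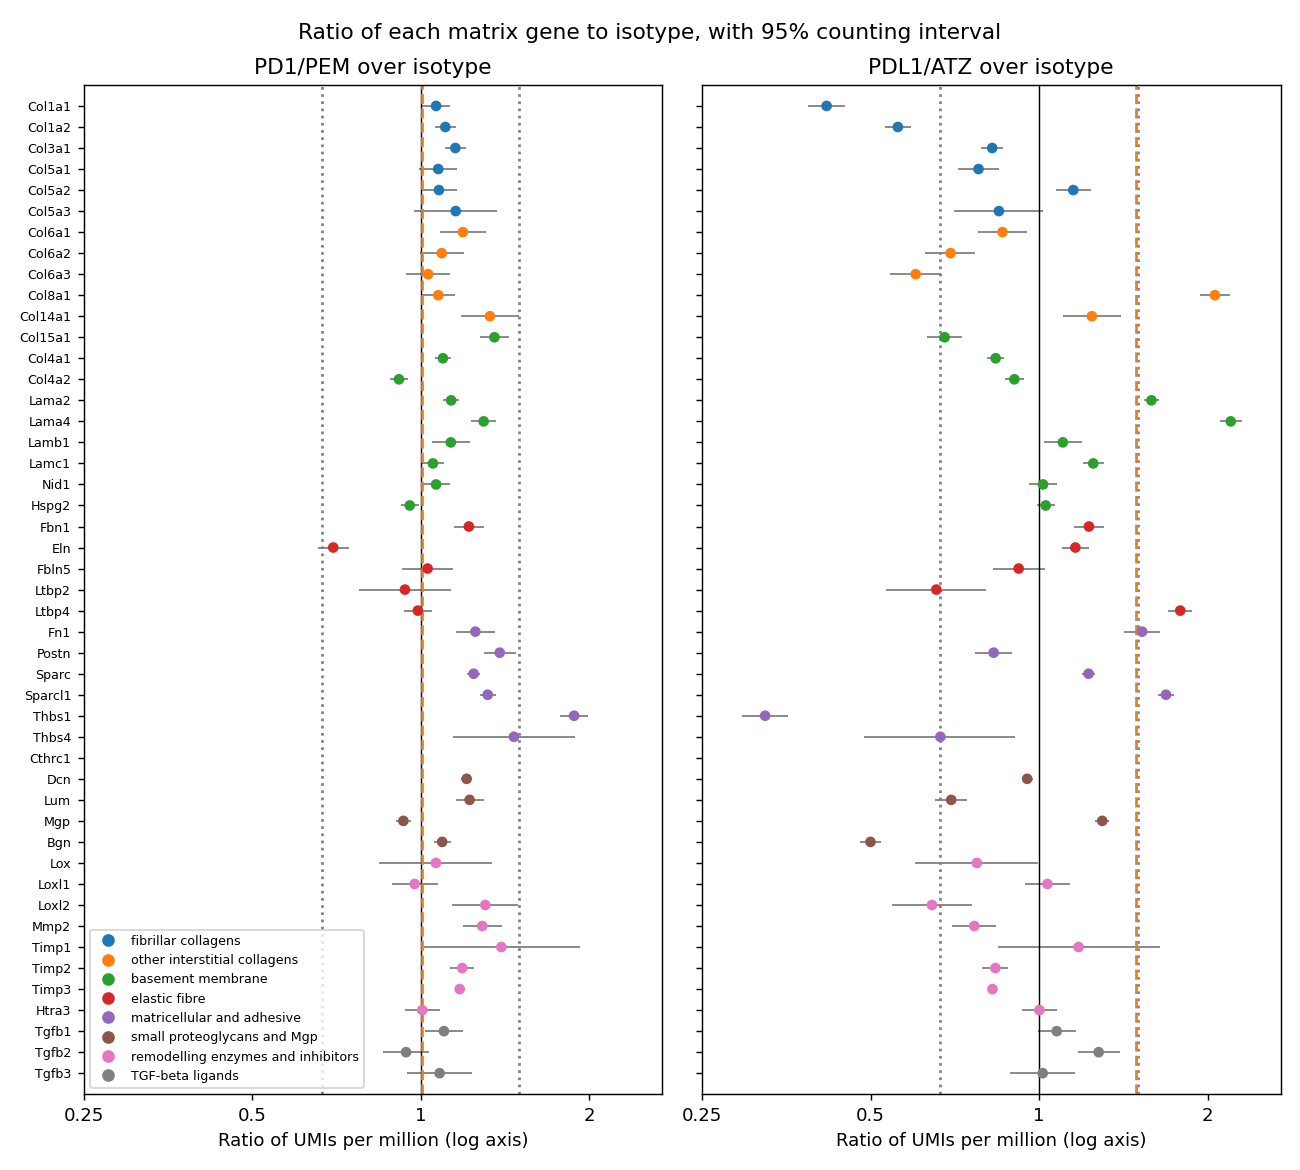
CPM ratio of each of the 46 measured matrix genes to isotype (log axis, points coloured by role) with 95% counting intervals, for PD1/PEM (left) and PDL1/ATZ (right). Dotted lines mark 1.5-fold and the dashed orange line the median of all genes. In PD1/PEM only Thbs1 lies beyond 1.5-fold, while in PDL1/ATZ most members lie left of the dashed line.

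PDL1/ATZ split the matrix genes. Against isotype, 6 of 46 genes were called higher and 8 lower, where the rule called 48.5% of all 15496 genes higher and 5.18% lower. The called higher genes were Lama4 (ratio 2.20, 2.10 to 2.30), Col8a1 (2.06, 1.94 to 2.19), Ltbp4 (1.79), Sparcl1 (1.69), Lama2 (1.59) and Fn1 (1.53). The called lower genes were Thbs1 (0.324), Col1a1 (0.417, 0.387 to 0.450), Bgn (0.50), Col1a2 (0.560), Col6a3 (0.602), Loxl2 (0.644), Ltbp2 (0.655) and Thbs4 (0.667). Lama4, Lama2 and Ltbp4 thus stood on one side, and the type I collagen chains, biglycan, both thrombospondins and Ltbp2 on the other. The laminin chains Lamb1 (1.1) and Lamc1 (1.25) were not called. Endothelial markers moved with Lama4: 13 of 16 were called higher, with a median log2 ratio of 0.98, and their part in its ratio was not tested. Members' median log2 ratio was -0.10, well under the 0.58 of all genes, and 6 of the 46 lay above that median. The number of higher and lower calls therefore depended on the scale. Set against the median gene, 0 members were called higher and 24 lower. With mitochondrial UMIs left out of the total, 2 were called higher and 17 lower. Shares of all genes called on these scales are not given, so these counts have no background beside them. The order of members among themselves does not change with the scale, and the mitochondrial share and symbol set of this library cannot be told apart from its treatment.

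Fibrillar collagens were mostly lower in PDL1/ATZ, with 0 of 6 called higher and 2 called lower. Their summed level was 837 CPM in isotype, 927 CPM in PD1/PEM and 590 CPM in PDL1/ATZ. Fibroblast markers were uneven beside them: 11 of 16 had ratios above 1 and 5 were called higher, where 48.5% of all genes were. Their median log2 ratio of 0.38 lay under the 0.58 of all genes, and 6 of the 16 markers lay above 0.58. The summed rise of the markers came mostly from Ebf2 (90.9 and 312 CPM in isotype and PDL1/ATZ), Abca8a (204 and 514 CPM) and Bicc1 (227 and 540.5 CPM). Dpt, dermatopontin, was at 116 and 79.4 CPM. Col1a1 was at 150.4, 160.2 and 62.8 CPM, while Col5a2, a fibril-nucleating chain, was at 90.7, 97.7 and 104 CPM. Chains of the same collagen were unequal too: Col1a1 UMIs per Col1a2 UMI were 0.609 (0.579 to 0.640), 0.586 (0.557 to 0.617) and 0.454 (0.420 to 0.491). Col1a1 per Col3a1 stood at 0.590, 0.545 and 0.298. For type VI collagen, Col6a1 per Col6a3 was 0.879 (0.802 to 0.964), 1.01 (0.924 to 1.11) and 1.26 (1.12 to 1.41). The isotype and PD1/PEM values were close in the collagen I and III ratios, and PDL1/ATZ was apart in all 3. Such ratios within a library do not depend on its scale.

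Gene length moved with these ratios. Members spanning at least 50 kb in the genome (21 genes) had a median log2 PDL1/ATZ ratio of 0.04, and the 25 shorter ones a median of -0.24. Over all genes the medians were 0.71 and 0.50. For fibroblast markers, none of them a member, they were 1.21 (6 genes) and 0.06 (10 genes). Short Thbs1 (15.3 kb), Col1a1 (16.8 kb) and Bgn (12.3 kb) were at the low end, and long Lama2 (640 kb), Lama4 (145 kb) and Col8a1 (130 kb) at the high end. Ltbp4 (32.6 kb) and Sparcl1 (34.6 kb) were short and high. Mgp (3.4 kb), at 1.30 (1.26 to 1.33), was short and above 1 but under the median of all genes. Col6a3 (78.0 kb), Loxl2 (86.8 kb), Ltbp2 (93.3 kb) and Col15a1 (105 kb) were long and low, at 0.602, 0.644, 0.655 and 0.678. Spearman's rho between span and ratio was 0.29 over the members, 0.74 over the fibroblast markers and 0.16 over 15489 genes. These values are a description, since all points share the same libraries. In PD1/PEM the long and short members had medians of 0.11 and 0.20. Whether reads in introns were counted is not stated in the labels, and the part of gene span in the PDL1/ATZ ratios was not tested.

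**Figure D3:**
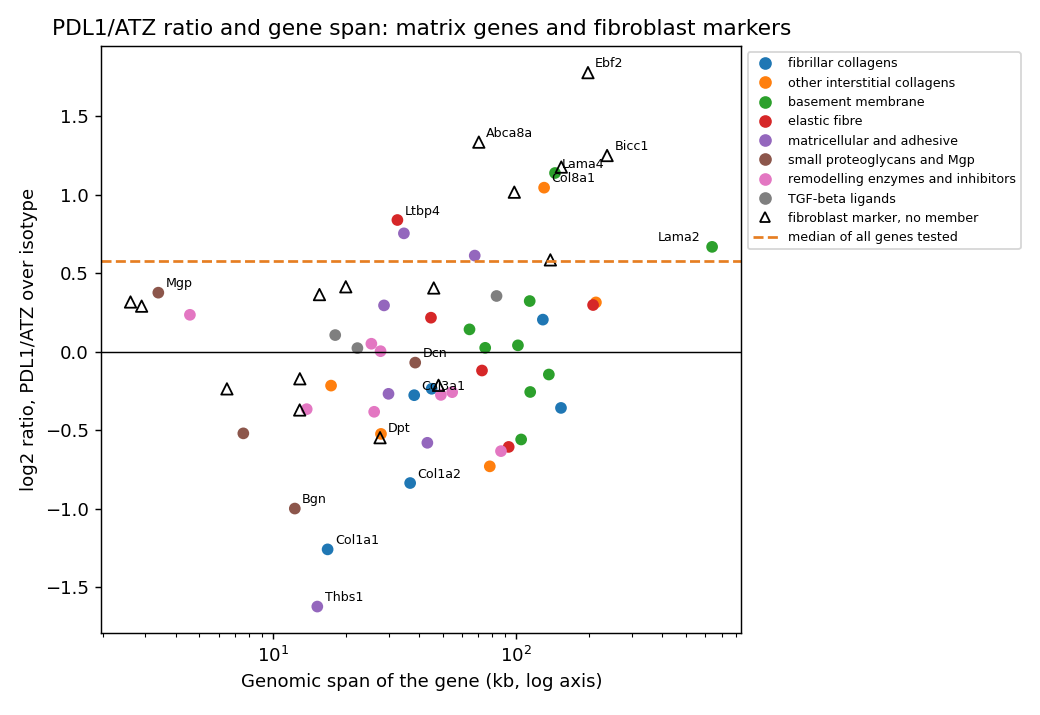
log2 CPM ratio of PDL1/ATZ to isotype against genomic span (kb, log axis) for the 46 measured matrix genes (circles, coloured by role) and 16 fibroblast markers (open triangles). The dashed line is the median of all genes, 0.58. The lowest points, Thbs1 and Col1a1, span under 20 kb, and Lama4 and Col8a1 over 100 kb.

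PDL1/ATZ against PD1/PEM shares libraries with the comparisons above and is given as values only. Here 4 members were called higher and 12 lower, beside 46.6% and 4.39% of 15346 genes. Thbs1 had the lowest ratio, 0.173 (0.157 to 0.189), followed by Col1a1 at 0.392. Those called higher were Col8a1 (1.92), Ltbp4 (1.81), Lama4 (1.70) and Eln (1.67).

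The same comparison was made in cells with fibroblast markers, again as CPM of summed UMIs. Cells with at least 2 different fibroblast markers, and more of them than of any other class, numbered 230 (2.42%, exact interval 2.12 to 2.75%), 83 (1.30%, 1.04 to 1.61%) and 182 (1.57%, 1.35 to 1.81%). The median cell carried 5, 7 and 6 different endothelial markers. The shares moved with depth: after thinning to 700 UMIs they were 4.08%, 3.12% and 2.48%. The median fold of members in the fibroblast-marker cells over all other cells of the library was 1.39, 1.33 and 1.33. Intervals lay above 1 for 25, 10 and 19 of 47 members. The marked cells held 367707, 172701 and 257299 UMIs, so these counts also depend on depth. The fold over all genes and their share of such intervals are not given for this rule. In these cells 40 members were measured in PD1/PEM and isotype at a minimum of 20 UMIs. Thbs1 was called higher, at 133 CPM in isotype and 330 CPM in PD1/PEM (2.48, 1.66 to 3.71), and Col8a1 lower, at 190.4 and 98.4 CPM (0.517, 0.285 to 0.888). The rule called 4.71% of 4249 genes higher and 5.06% lower, so 1 call in each direction among 40 was below the background. The members' median log2 ratio was 0.07 against 0.00 over all genes.

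Because marker RNA was so widespread, another rule, based on an excess of marker UMIs, was added after the data were seen. It asked for at least 6 fibroblast marker UMIs, at least 3 times their mean share in the library, and no such excess of another class. It kept 117, 72 and 229 cells, of which 42, 19 and 79 also met the first rule, so most cells differ between the rules. The median marker enrichments of the kept cells were 3.61, 3.52 and 3.83-fold. Of these, 68, 55 and 132 lay under 4-fold, and 157, 179 and 339 further cells lay between 2 and 3-fold, so the limit cuts a continuous range. Over 25% mitochondrial UMIs were found in 83, 50 and 0 of the kept cells. In PD1/PEM against isotype, Lama4 was called higher at 163 and 315 CPM (1.93, 1.27 to 2.95) and Mgp lower at 918 and 607 CPM (0.661, 0.520 to 0.835), where 4.87% and 4.70% of 3635 genes were called. Thbs1 was not called there, at 231 and 333 CPM (1.44, 0.984 to 2.10), nor Col8a1 at 300 and 198 CPM (0.662, 0.429 to 1.0). The calls thus changed with the definition of the cells. The direction of Thbs1 and of Col8a1 did not, though the rules share cells and both intervals reached 1 under the excess rule. Over all deposited cells Col8a1 was on the other side, at 1.07 (1.0 to 1.15).

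For PDL1/ATZ against isotype, calls in fibroblast-marker cells again ran in both directions. By the first rule 6 of 41 members were called higher and 8 lower, beside 26.0% and 7.31% of 5224 genes. By the excess rule 5 of 40 were called higher and 15 lower, beside 25.6% and 6.73% of 5544 genes. Col1a1 was at 364 CPM in isotype and 78.5 CPM in PDL1/ATZ under the excess rule, a ratio of 0.216 (0.138 to 0.328). Lama2 was at 899 and 2042 CPM, a ratio of 2.27 (1.96 to 2.64). Col1a2 (0.335), Col3a1 (0.393), Bgn (0.284) and Dcn (0.609) were called lower, and Lama4 (3.06), Col8a1 (1.67), Lamc1 (1.5) and Eln (1.57) higher. Col1a1 and Lama2 so differed in opposite directions within the same cells. PDL1/ATZ against PD1/PEM gave 5 higher and 6 lower of 39 by the first rule (22.4% and 4.82% of 4084 genes) and 6 higher and 13 lower of 40 by the excess rule (20.7% and 4.67% of 5056 genes).

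The excess rule also gives the fold of a gene's level in marked cells over all other cells of the same library. In fibroblast-marked cells 29, 22 and 20 of the 46 members with at least 50 UMIs in the library had an interval above 1, or 63.0%, 47.8% and 43.5%. Over all genes of that depth, markers left out, the shares were 5.43%, 4.05% and 7.56%. An interval below 1 was found for 0, 0 and 3 members, those of PDL1/ATZ being Col4a1, Col4a2 and Sparcl1. The median fold of members was 1.77, 1.54 and 1.35, beside 0.987, 0.985 and 0.942 over all genes. Myh6, a cardiomyocyte myosin that fibroblasts lack, was read in the same cells at 5661, 4179 and 2366 CPM, and the part of such RNA in the folds was not tested. Lama2 reached 2.14 (1.88 to 2.44), 1.42 (1.17 to 1.70) and 3.18 (2.95 to 3.42), and Col8a1 3.12, 1.88 and 2.54. Lamc1, the common laminin gamma chain, stood at 2.22, 2.34 and 2.74, and Htra3, a secreted protease, at 2.60, 1.74 and 2.56. Col3a1, at 2.40 (2.04 to 2.82) and 2.30 (1.89 to 2.77) in isotype and PD1/PEM, was at 1.12 (0.902 to 1.39) in PDL1/ATZ. Col3a1 was therefore no more abundant in marked than in other cells of PDL1/ATZ beyond counting error, while Lama2 and Col8a1 were. The markers that pick these cells differed in make-up between libraries. Ebf2, Abca8a and Bicc1 stood at 90.9, 204 and 227 CPM in isotype and 312, 514 and 540.5 CPM in PDL1/ATZ. Dpt stood at 116 and 79.4 CPM. Marked cells may thus differ in kind between libraries, and the part of this in the folds was not tested.

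Fewer members had an interval above 1 in cells marked for other classes. Of the 47 members, 8, 9 and 4 had an interval above 1 in mural-marked cells, and 1, 0 and 6 below 1. In macrophage-marked cells 0, 2 and 2 lay above 1, and 3, 7 and 17 below. In mesothelial-marked cells 3, 3 and 4 lay above 1, and 0, 3 and 7 below. Shares over all genes are not given for these classes, so the counts have no background beside them. Mesothelial-marked cells held 19184, 70188 and 133540 UMIs, against 263550, 171343 and 382055 in fibroblast-marked cells. Fewer intervals can clear 1 at that depth. Cells with excess mural markers (131, 89 and 247) had Timp3 at 1.14 (1.03 to 1.25), 1.38 (1.26 to 1.5) and 1.23 (1.14 to 1.34), against 1.05, 1.08 and 1.09 in fibroblast-marked cells. Eln was at 1.39 (1.05 to 1.80) and 2.0 (1.48 to 2.66) in mural-marked cells of isotype and PD1/PEM but 0.929 (0.723 to 1.18) in PDL1/ATZ. Tgfb3 reached 4.30 (3.09 to 5.85) in mural-marked cells of PDL1/ATZ, from 46 UMIs, with 1.91 and 1.46 in the other libraries. Tgfb1 in macrophage-marked cells (99, 137 and 171 cells) stood at 1.42 (0.965 to 2.03), 1.28 (0.944 to 1.70) and 2.12 (1.64 to 2.69), so of the 3 libraries only PDL1/ATZ had an interval above 1. Mesothelial-marked cells were few (5, 18 and 46). In those of PDL1/ATZ, Loxl1 was at 5.14 (3.63 to 7.08), Col14a1 at 4.77 (3.03 to 7.18) and Col3a1 at 2.30 (1.77 to 2.95), while Col8a1 was at 0.364 (0.174 to 0.673). Endothelial markers could not be used this way, since 9, 1 and 1 cells showed an excess of them.

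**Figure D4:**
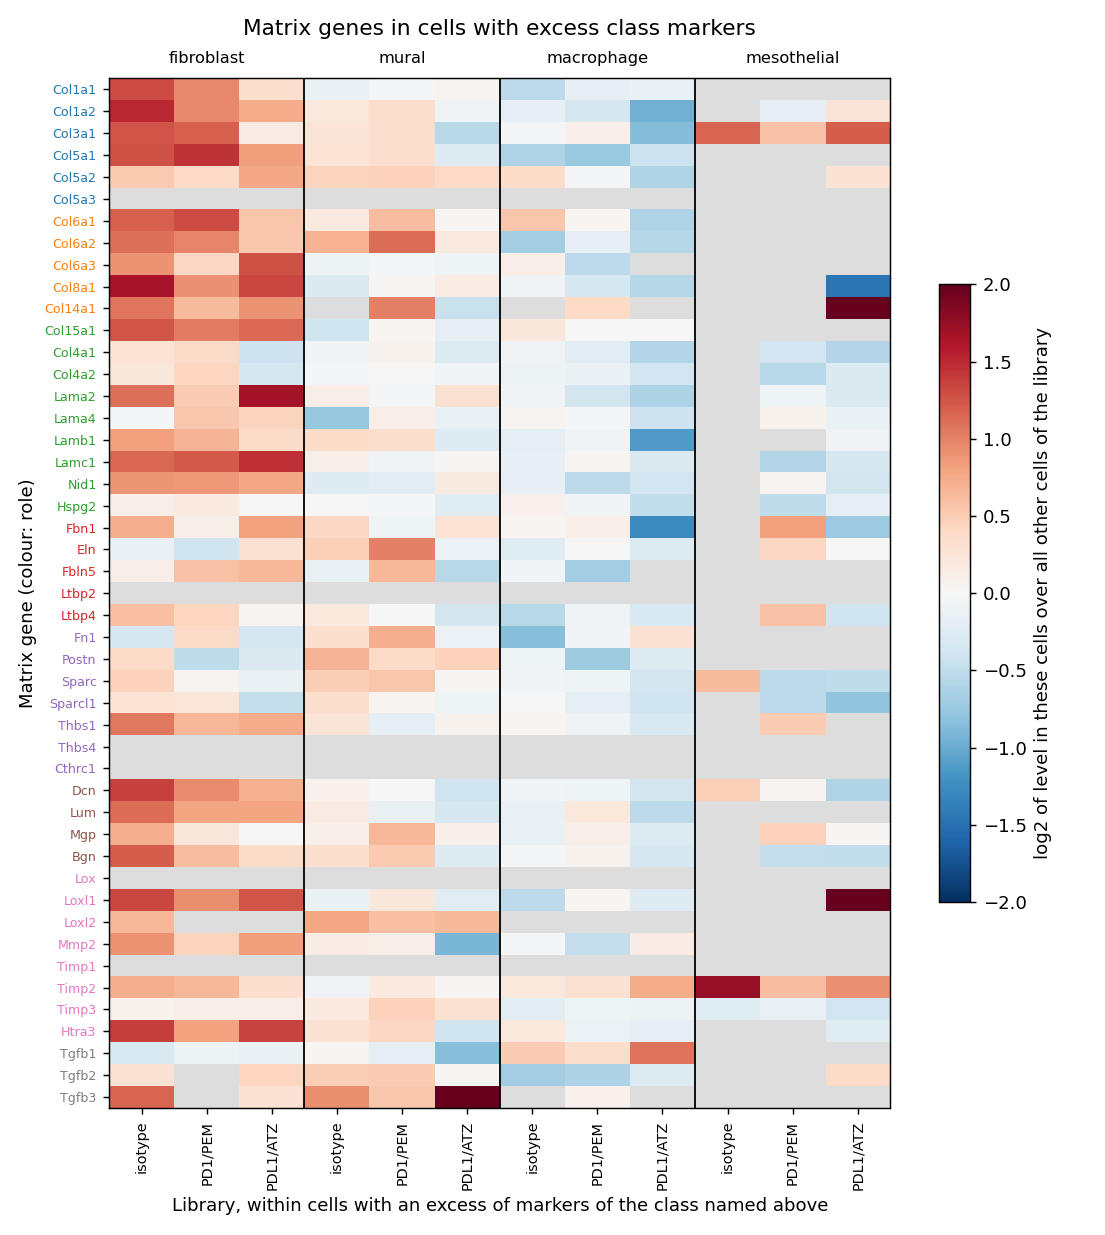
log2 fold of each matrix gene's level in cells with excess fibroblast, mural, macrophage or mesothelial markers over all other cells of the same library (red higher, blue lower, grey under 10 UMIs in the marked cells). Fibroblast-marked cells are red for most interstitial collagens, Lama2, Lamc1, Htra3 and Loxl1, and Tgfb3 stands out in mural-marked and Loxl1 and Col14a1 in mesothelial-marked cells of PDL1/ATZ.

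Of 188 other genes of matrix pathways, 14 (7.45%) were called higher and 8 (4.26%) lower in PD1/PEM against isotype, beside 5.00% and 3.65% of all genes. The calls were unevenly spread over the lists, whose small sizes leave their shares imprecise. Collagen processing enzymes had 1 of 23 called higher and 0 lower, Tll1, a procollagen C-proteinase, with a log2 ratio of 1.02. The 17 other collagens and the 16 other elastic fibre genes had 0 calls. Other basement membrane genes had 2 of 16 called higher, Fras1 (1.0) and Papln (1.04), and 2 lower, among them Smoc1 (-0.87). Proteoglycans and matricellular genes outside the members had 1 of 32 higher and 2 lower: Cyr61 (0.87), Ctgf (-0.60) and Nov (-0.68), all of the CCN family of growth factor-binding matrix proteins. These are older symbols. The PDL1/ATZ library has them under the newer names Ccn1, Ccn2 and Ccn3, at 126, 60.5 and 15.4 CPM, and no ratio across the names was computed. Proteases and inhibitors had 4 of 30 higher and 2 lower, with Adamts4, an aggrecanase, at 0.99 and Timp4 at -0.67. TGF-beta receptors and responders had 2 of 29 in each direction, including Klf10 (-0.98), a TGF-beta-inducible factor, Smad6 (-0.61), an inhibitory SMAD, and Itgb6 (0.71), an integrin chain that can activate latent TGF-beta. Matrix receptors had 4 of 25 higher and 0 lower, with the integrin alpha chains Itga6 (0.77), Itga5 (0.74) and Itga1 (0.69). Medians of these lists lay between log2 -0.01 and 0.19, beside 0.01 over all genes.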

How the data were processed

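Single-cell RNA sequencing counts of 3 libraries were used, 1 per group. Per the submitters' processing notes, Cell Ranger and Seurat were used with the mm10 build; for versions, filters and introns the labels state nothing. The deposited values are whole-number UMI counts per gene and cell, per the file's values not normalized, and the library chemistry per the labels' protocols was a 10x Genomics 3′ kit. The counts of all deposited cells were summed per gene, divided by the library total (16677883, 14766346 and 15144668 UMIs) and multiplied by 1000000. Ratios carry exact conditional binomial 95% intervals and fitted log2 values a pseudocount of 0.5. Intervals cover counting error only. The procedure was tested on simulated counts. No doublet caller was run; cells with markers of several classes were left out as an alternative. Levels are not scaled to gene length, as the libraries were 3′ counts.

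Positions and spans come from GENCODE M21 (GRCm38, the same build as mm10), and promoter windows from RefSeq. None of the printed windows overlaps an annotated exon. The genes given in full were the called members, the most abundant member of each role group and members called in fibroblast-marker cells; other pathway genes were named where called and among the 3 largest interval bounds of a list. Single markers and the members below 1 in marked cells were named after their values were seen. A gene that this rule names among the proteases and inhibitors is not reported here. The members, lists and rules were chosen with earlier results of these data known, and the marker-excess rule and the range of 1000 to 2000 UMIs were added after the data were seen. Alternatives covered the CPM denominator, mitochondrial share, shared barcodes, UMI minimum, fold, doublets, depth and marker rule. Python 3.11.15, NumPy 2.4.6, SciPy 1.17.1, pandas 2.3.3 and Matplotlib 3.10.9 were used.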

Additional observations from a re-analysis of the deposited data

How the results depend on the processing

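No paired analysis was possible because each group is 1 library. Each comparison is between 2 single libraries and ends if either is left out. Depth limits Cthrc1, Timp1, Thbs4 and Lox, and all members in marked cells. Of the 9 alternatives for PD1/PEM against isotype over all cells, Thbs1 had log2 ratios of 0.88 to 1.03 and Eln of -0.58 to -0.52. The causes of the changes below were not tested. Shares of all genes called under these settings are not given, so the counts describe the members alone.

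Over all cells, PD1/PEM against isotype had 0 members called higher at a 2-fold limit, 3 without cells carrying markers of several classes (which keeps 26.8%, 13.7% and 21.1% of cells) and 2 in cells of 1000 to 2000 UMIs, against 1. PDL1/ATZ against isotype (6 higher, 8 lower, median log2 -0.0955) had 2 higher, 17 lower and -0.4137 without mitochondrial UMIs in the total, 0, 24 and -0.6726 against the median gene, 2 and 3 at 2-fold, and 5 lower without cells of several classes. PDL1/ATZ against PD1/PEM (4, 12 and -0.2013) had 1, 22 and -0.5183, then 0, 28 and -0.7515, and 0 and 5 at 2-fold under the same settings.

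In fibroblast-marker cells, PD1/PEM against isotype (1, 1 and 0.0701) had 2 higher with 3 markers and 2 without mitochondrial UMIs in the total. It had 2 higher, 3 lower and a reversed median of -0.2474 in cells of at most 25% mitochondrial UMIs, 0 lower and 0.4497 without cells of several classes, and 3, 0 and 0.184 after thinning. PDL1/ATZ against isotype (6, 8 and -0.0008) had 3 higher and -0.3329 without mitochondrial UMIs, 2 higher and -0.2573 in cells of low mitochondrial share, and 3 lower after thinning. It had 1, 0 and a reversed 0.3902 without cells of several classes, which leaves 59, 9 and 10 cells, and 15 lower and -0.3029 by the marker-excess rule. PDL1/ATZ against PD1/PEM (5, 6 and -0.0682) had 2, 13 and -0.4124 without mitochondrial UMIs, 2 higher in cells of low mitochondrial share, 0, 0 and -1.2795 without cells of several classes, -0.1918 after thinning, and 13 lower and -0.3544 by the excess rule.

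The share of fibroblast-marker cells in isotype (2.42%) was 1.92% with 3 markers, 4.08% after thinning, 0.620% without cells of several classes and 1.23% by the excess rule. In PD1/PEM (1.30%) it was 3.12% after thinning and 0.141% without cells of several classes. In PDL1/ATZ (1.57%) it was 2.48%, 0.0862% and 1.97% by the excess rule.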

Other observations

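Members varied between cells more than depth alone gives. The spread of a gene was measured as its dispersion index, the variance of its counts around the value expected from each cell's depth, which is 1 for pure counting. The median over 46 members was 1.07, 1.11 and 1.11 in isotype, PD1/PEM and PDL1/ATZ, beside 1.02, 1.03 and 1.04 over all genes. The values of 12, 16 and 14 members lay above the 95th percentile of all genes. Mgp was the highest in isotype at 1.70, Timp3 in PD1/PEM at 1.90 and Eln in PDL1/ATZ at 2.17. The highest Eln count in a cell was 14, 27 and 32 UMIs. Dcn was high in each library, at 1.66, 1.69 and 1.53. Lama2 went from 1.14 and 1.23 to 1.55 in PDL1/ATZ, and Bgn from 1.35 and 1.47 to 1.1. Members differ in level, and abundant genes show such spread more readily.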
